A study of Homo sapiens with 2 samples.

Results

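The genes described here build the contacts between neighbouring cells: cadherins and their catenins, claudins and other tight-junction proteins, and the components of desmosomes. They were chosen by name, as every gene with the symbol CDH, CLDN, DSC, DSG, PKP or TJP followed by a number, together with the catenin genes CTNNA1, CTNNB1 and CTNND1 and with EPCAM, F11R, OCLN, DSP and JUP. This gave 62 genes with 151 probe sets, of 18132 genes with 49395 probe sets in all. A RefSeq gene table holds 69 such names, of which 7, CTNND1 and F11R among them, were not analysed here as members.

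The cells were H1299, an established line from a human non-small cell lung cancer, and their RNA was measured 48 hours after a transient lipid-based transfection. Cells of the first group had received the empty pcDNA3.1 plasmid, and cells of the second the same plasmid carrying EGR1, a zinc-finger transcription factor. Both groups thus share the vector and the transfection, and each held 1 Affymetrix array. There was no replicate error, so no p-value could be given, and each difference describes these 2 arrays. The study asked which EGR1-regulated genes bear on the malignancy of lung cancer cells, metastasis among them.

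Adherens junctions join cells through cadherins, whose tails bind beta-catenin or plakoglobin and, through alpha-catenin, the actin cytoskeleton. Tight junctions seal the space between epithelial cells with claudins and occludin, held by scaffold proteins of the ZO family. Desmosomes join intermediate filaments of neighbouring cells through desmogleins, desmocollins, plakoglobin, plakophilins and desmoplakin. Loss of E-cadherin and gain of N-cadherin is the textbook cadherin switch of carcinoma cells that turn mesenchymal.

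The values are log2 probe-set levels made with RMA, and a difference is the level in the EGR1 array minus that in the empty-vector array. The probe set with the highest mean of both arrays stood for a gene, and genes with a mean level at or above 5.22, the 40th percentile of all probe sets, were treated as past the floor. Levels of different genes are not on a common scale, so levels are compared between the arrays and not between genes. Several probe sets for 1 gene were the only repeat readings. Over 7113 genes their differences had a pooled SD of 0.15 on the log2 scale, and over the 15 junction genes that had 2 or more probe sets past the floor it was 0.11. This SD covers probe-level error alone and says nothing of the error from culture, transfection or hybridisation.

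The quartiles of both arrays lay close together, at 4.28, 5.77 and 7.50 with the empty vector and 4.32, 5.79 and 7.47 with EGR1. RMA normalizes between arrays, so close quartiles say little about array quality. The 3' probe set of ACTB exceeded its 5' probe set by 1.94 log2 units with the empty vector and 1.93 with EGR1, and that of GAPDH by 0.14 and 0.13. EGR1 itself was 13.3-fold and 6.76-fold higher in the EGR1 array by 2 of its 6 probe sets, and the other 4 differed by -0.39 to -0.20. The share of cells that took up the plasmid is not given in the sources used here. In such bulk RNA, a large change in few cells and a small one in all cells cannot be told apart, nor can fewer cells of a kind and less RNA per cell.

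Of the 62 junction genes 30 lay past the floor, beside 12652 of all 18132 genes. The differences of the 30 were small. A difference was counted at 0.32 log2 units or more, which is a level 25% higher or 20% lower and about double the pooled SD between probe sets. In the EGR1 array 4 of the 30 were higher by this much (13.3%, against 4.36% of all 12652 genes past the floor) and 1 was lower (3.33%, against 3.25%). In either direction that was 5 of 30 (16.7%, against 7.6%). The higher genes were the plakoglobin gene JUP and the claudins CLDN25, CLDN16 and CLDN1, and the lower gene was CLDN12. CLDN25 passed the floor only through its EGR1 level (5.58, against 5.13 with the empty vector), so its place in these counts depends on its difference. No junction gene reached 1.5-fold, which 1.17% of all genes past the floor did, or 2-fold, which 0.356% did. The median difference of the 30 genes was 0.08, beside -0.02 over all genes past the floor, and 18 of them (60%) were above 0, beside 44.6% of all genes past the floor.

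**Figure D1:**
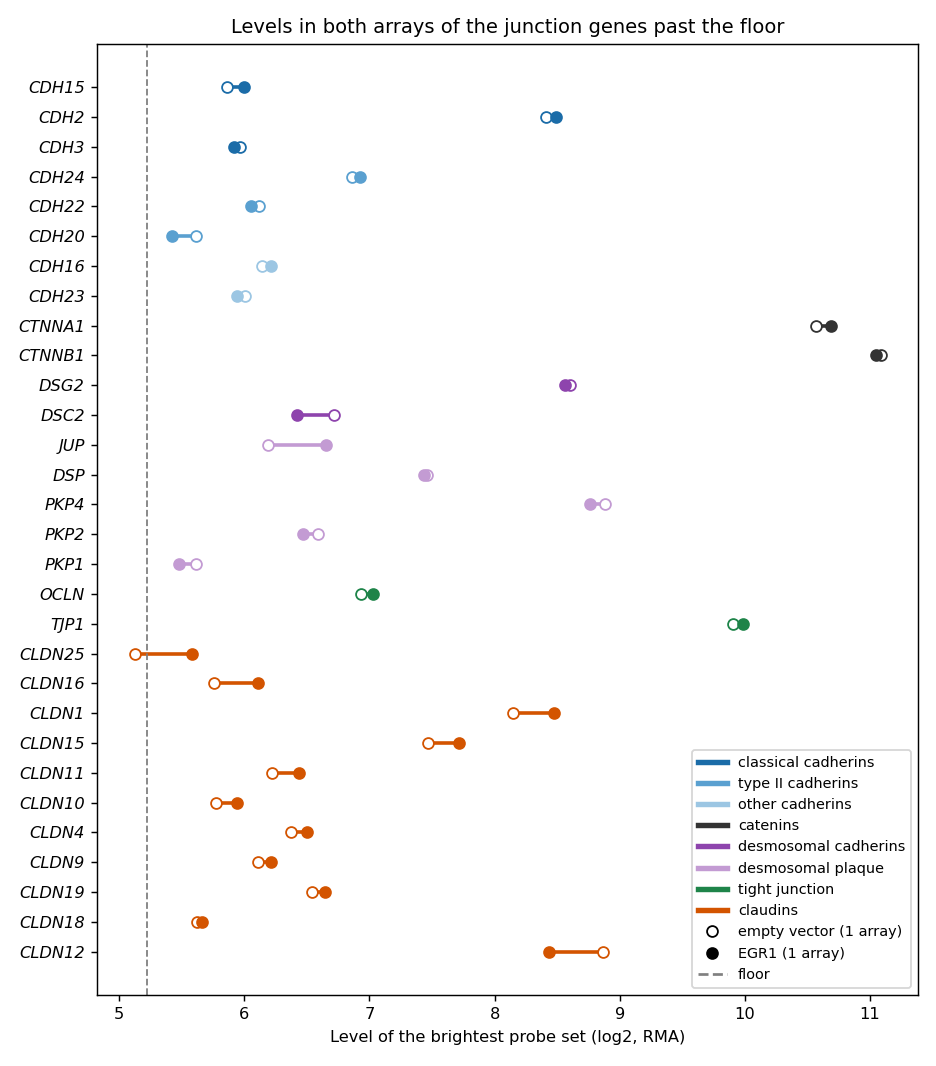
Level of each junction gene past the floor (log2, RMA) on the horizontal axis, with an open circle for the empty-vector array and a filled circle for the EGR1 array, coloured by role; the dashed line is the floor of 5.22. The longest lines belong to JUP, CLDN25, CLDN12 and CLDN16, and CLDN25 alone crosses the floor.

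Claudins, the membrane-spanning proteins that set the permeability of tight junctions, held 3 of the 4 higher junction genes and the lower one. There are 24 claudins in the gene table, of which 22 were measured and 11 lay past the floor. Of these 10 were above 0 and 1 below, with a median difference of 0.17, beside 44.6% above 0 and a median of -0.02 for all genes past the floor. The 10 include CLDN25, which passed the floor only through its EGR1 level. The split of 10 against 1 was the same after a lowess curve was subtracted and after the columns were quantile-normalized, and the medians were then 0.15 and 0.15. With the mean of all probe sets it was also 10 against 1, and the median was 0.11. Without probe sets ending in _x_at and _s_at it was 7 against 1 (median 0.21). With the floor at the 20th percentile it was 14 against 4 (median 0.11), and at the 60th 4 against 1 (median 0.13). Under the floor 4 claudins were above 0 and 7 below, beside 54.5% above 0 for all genes there. Over all 22 claudins the split was thus 14 against 8 and the median 0.09, beside 47.6% above 0 for all genes.

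CLDN1, a barrier-forming claudin of skin and many epithelia, read 8.15 with the empty vector and 8.47 with EGR1, a difference of 0.32. It had 4 probe sets, with differences of 0.32, 0.32, 0.35 and, under the floor, 0.30. Their SD of 0.02 was far under 0.15, the pooled value over all genes. All 4 CLDN1 probe sets were thus higher in the EGR1 array by nearly the same amount. The brightest (0.325 against a threshold of 0.322) lay barely past the 0.32 threshold, and the next (0.321) just short of it.

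CLDN16, a claudin of the kidney tubule needed for magnesium reabsorption, read 5.76 with the empty vector and 6.11 with EGR1, a 1.27-fold higher level. Its other probe set, dim at 2.76 and 2.83, differed by 0.07, and with the mean of both the difference was 0.21, under the threshold. CLDN16 and CLDN1 neighbour each other among the protein-coding genes of the RefSeq table. Of 17 such neighbouring pairs of junction genes this was the only pair with both genes past the floor. The differences had the same sign in 5 of the 17 pairs.

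CLDN25 read 5.13 with the empty vector, under the floor, and 5.58 with EGR1, 1.37-fold higher, by 1 probe set. This fold rests on a dim value. CLDN15, a cation-pore claudin of the intestine, read 7.47 and 7.71 in the empty-vector and EGR1 arrays by its brightest probe set and 5.85 and 5.64 by the other, so its probe sets lay on both sides of 0 (0.25 and -0.21). CLDN11, a claudin of myelin and the testis, read 6.22 and 6.44, and its other probe sets, both under the floor, differed by 0.19 and 0.07. CLDN10, a pore-forming claudin, read 5.77 and 5.94, with a second probe set at -0.12.

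CLDN4, a barrier claudin and a receptor of Clostridium perfringens enterotoxin, read 6.37 with the empty vector and 6.50 with EGR1. Its 3 probe sets differed by 0.13, 0.13 and 0.26. CLDN9 differed by 0.11 with 1 probe set. CLDN19, the partner of CLDN16 in the kidney, differed by 0.10, and its 4 probe sets ran from -0.21 to 0.29. CLDN18, known from lung and stomach epithelium, differed by 0.04. These differences lay within the spread between probe sets of 1 gene.

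CLDN12 went the other way. It read 8.87 with the empty vector and 8.44 with EGR1, 1.35-fold lower. Its second probe set read 5.91 and 5.59, a difference of -0.32, just short of the threshold. That second value stood for the gene once probe sets ending in _x_at and _s_at, which can bind related transcripts, were left out, and CLDN12 was then no longer past it. A further probe set that the annotation assigns to CLDN12, GTPBP10 and LOC101927446 together read 8.90 and 8.84, a difference of -0.06, and was not counted as a member.

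Promoters of 3 claudins are shown because EGR1 binds GC-rich DNA. CLDN1 and CLDN12 were the claudins past the threshold with more than 1 probe set past the floor. CLDN11, short of the threshold at 0.21, was picked because the window shown held an EGR1 site. The windows are those of RefSeq on GRCh38.p14, from 250 bases before to 50 after a start site, written 5′ to 3′ on the strand of the gene. Capitals mark the letters of an EGR1 site (GCGTGGGCG or GCGGGGGCG), a GC box (GGGCGG) or an E-box of the kind bound by SNAIL and ZEB repressors (CACCTG), searched on both strands. The letters GCGGGGGCG and GGGCGG can overlap.
CLDN1, chr3:190322397-190322696, minus strand: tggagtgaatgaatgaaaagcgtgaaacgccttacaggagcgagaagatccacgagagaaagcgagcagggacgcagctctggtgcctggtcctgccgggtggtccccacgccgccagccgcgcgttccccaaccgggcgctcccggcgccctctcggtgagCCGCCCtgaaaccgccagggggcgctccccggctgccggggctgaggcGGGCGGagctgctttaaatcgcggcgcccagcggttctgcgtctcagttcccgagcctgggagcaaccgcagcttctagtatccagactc
CLDN12, chr7:90403211-90403510, plus strand: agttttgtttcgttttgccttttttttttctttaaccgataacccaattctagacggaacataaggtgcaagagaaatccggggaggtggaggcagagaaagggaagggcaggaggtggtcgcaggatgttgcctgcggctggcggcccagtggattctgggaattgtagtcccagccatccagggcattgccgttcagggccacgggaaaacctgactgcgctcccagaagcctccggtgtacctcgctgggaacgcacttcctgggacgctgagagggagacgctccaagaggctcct
CLDN11, chr3:170418618-170418917, plus strand: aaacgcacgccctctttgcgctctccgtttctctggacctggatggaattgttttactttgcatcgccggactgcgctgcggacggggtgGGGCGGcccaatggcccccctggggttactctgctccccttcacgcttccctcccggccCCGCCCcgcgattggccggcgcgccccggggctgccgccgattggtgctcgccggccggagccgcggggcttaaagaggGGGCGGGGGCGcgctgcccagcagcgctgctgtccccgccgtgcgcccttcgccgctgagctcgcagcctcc
The CLDN1 window held 2 GC boxes, the CLDN12 window none of these letters, and the CLDN11 window 3 GC boxes and an EGR1 site that overlaps the last of them.

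Among the other tight-junction genes, OCLN, which encodes occludin, read 6.93 with the empty vector and 7.02 with EGR1, with a second probe set at -0.06. TJP1, which encodes the scaffold ZO-1, read 9.91 and 9.99, with a second probe set at -0.04. Both genes had probe sets on either side of 0, so neither direction is settled. EPCAM, an adhesion molecule of epithelia, and TJP3, the scaffold ZO-3, lay under the floor in both arrays.

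JUP had the largest positive difference of the 62 junction genes. Its product plakoglobin is shared by desmosomes and adherens junctions, where it can take the place of beta-catenin. JUP read 6.19 with the empty vector and 6.65 with EGR1, 1.38-fold higher. It was represented by 1 probe set, so there was no second reading of it. Averaging or leaving out probe sets could therefore not change its value. After the lowess correction and after quantile normalization, on values that RMA had already normalized, the difference was 0.47 and 0.47. RefSeq lists a pair of start sites for JUP, and the window of the upstream one is shown with the same capitals.
JUP, chr17:41786662-41786961, minus strand: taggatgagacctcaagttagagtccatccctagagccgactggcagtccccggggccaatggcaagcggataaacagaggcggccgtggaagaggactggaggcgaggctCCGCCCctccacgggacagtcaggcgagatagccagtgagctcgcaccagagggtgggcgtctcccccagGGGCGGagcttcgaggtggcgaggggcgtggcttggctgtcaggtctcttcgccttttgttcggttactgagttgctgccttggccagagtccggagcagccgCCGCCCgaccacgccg
It held 3 GC boxes and no EGR1 site, and the window of the downstream start held 2 E-boxes.

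None of the other desmosomal genes past the floor reached the threshold, which 7.6% of all genes there did. DSC2, a desmocollin of simple epithelia and heart, read 6.72 with the empty vector and 6.42 with EGR1, 1.23-fold lower and short of the threshold. All 6 of its probe sets were below 0, from -0.29 to -0.02, and 2 of them lay past the floor. DSG2, the desmoglein found in all desmosome-bearing tissues, read 8.60 and 8.57, and its 3 probe sets ran from -0.20 to -0.03. After the lowess correction its brightest probe set stood at 0.02, so its direction is not settled.

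Of the plaque genes, PKP4, an armadillo protein of cell contacts, read 8.88 with the empty vector and 8.77 with EGR1 by the brightest of its readings. All 4 PKP4 probe sets were below 0, and the other 3 differed more, by -0.30, -0.31 and -0.37. The mean over the 4 was -0.27. PKP2, a plakophilin of simple epithelia and heart, differed by -0.12, with its second probe set at 0.00. PKP1, a plakophilin of stratified epithelia, differed by -0.14, although a dim probe set stood at 0.32, just short of the threshold. DSP, which encodes desmoplakin, the link to intermediate filaments, read 7.46 and 7.44, and its second probe set was 0.14. With each gene at the mean of its probe sets, 3 of the 5 plaque genes were above 0 in place of 1. The direction of the plaque genes as a group is therefore not settled.

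Among the catenins, CTNNA1, the alpha-catenin that couples the complex to actin, read 10.57 with the empty vector and 10.69 with EGR1. Its 7 probe sets were all above 0, but by no more than 0.15, and the 6 past the floor had an SD of 0.06. CTNNB1, which encodes beta-catenin, read 11.09 and 11.05. All 8 of its probe sets lay past the floor and below 0, from -0.25 to -0.03 (SD 0.09). The brightest CTNNB1 probe set was among the least changed of the 8. It stood at -0.004 after the lowess correction and at -0.02 after quantile normalization, while the mean over all 8 was -0.13. The CTNNA1 window with an EGR1 site is shown because it was, with CLDN11, DSP and TJP1, among the 4 windows of junction genes past the floor that held those letters.
CTNNA1, chr5:138753175-138753474, plus strand: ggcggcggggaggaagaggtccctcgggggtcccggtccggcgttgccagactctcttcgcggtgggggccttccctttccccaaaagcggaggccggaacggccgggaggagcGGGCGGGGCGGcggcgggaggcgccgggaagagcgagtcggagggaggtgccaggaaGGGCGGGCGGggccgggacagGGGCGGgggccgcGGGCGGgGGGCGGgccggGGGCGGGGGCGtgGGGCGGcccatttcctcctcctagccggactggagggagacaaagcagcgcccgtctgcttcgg
It held 9 GC boxes, several of them overlapping, and 1 EGR1 site that overlaps a GC box.

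Promoter windows were found for 43 of the 62 junction genes (72 windows, some genes having several start sites). An EGR1 site was present in 4 of these (5.56%), beside 5.77% of all 35116 RefSeq windows of the same length. GC boxes were present in 33 (45.8%, beside 45.0%) and E-boxes in 18 (25%, beside 20.6%). Of the 39 windows of junction genes past the floor, 10.3% held an EGR1 site, 64.1% a GC box and 28.2% an E-box. These shares are above those of all promoters, but the windows of all promoters were not limited to genes past the floor. The comparison is thus between unlike sets, and it was not tested. The 39 windows belong to 22 genes. Of the windows of JUP, CLDN1, CLDN16, CLDN25 and CLDN12, none held an EGR1 site in these letters.

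**Figure D2:**
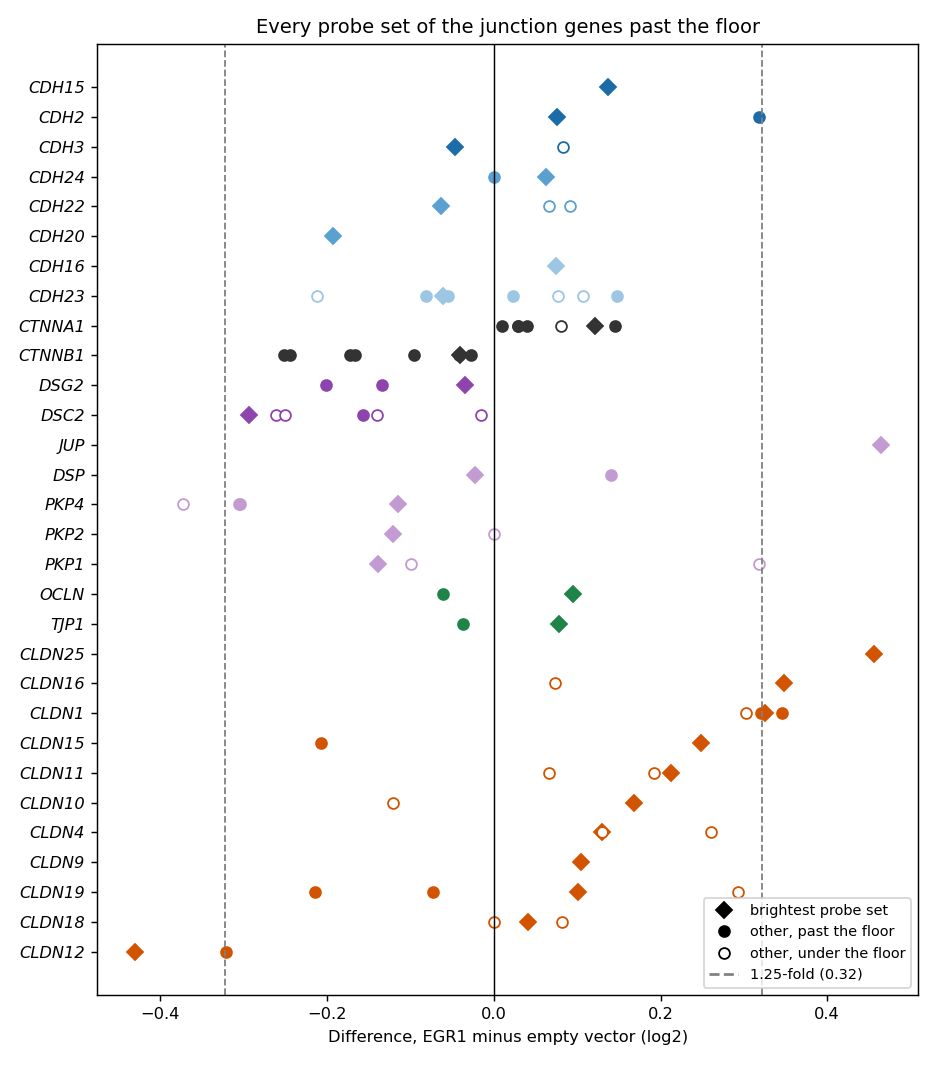
Difference of every probe set (log2, EGR1 minus empty vector) of the 30 junction genes past the floor, coloured by role as in the plot of levels; diamonds are the brightest probe sets, filled circles other probe sets past the floor and open circles those under it, and dashed lines mark the threshold of 0.32. The 4 CLDN1 probe sets sit together between 0.30 and 0.35, whereas those of CLDN19 run from -0.21 to 0.29.

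Repeat readings from several probe sets agreed in direction about as often as in other genes. Of the 15 junction genes read by several probe sets past the floor, 8 (53.3%) had all of these on one side of 0, beside 55.5% of 7113 genes. In CDH2, CLDN1 and CTNNA1 they were all above 0, beside 21.2% of genes, and in CLDN12, CTNNB1, DSC2, DSG2 and PKP4 all below, beside 34.4%. In 0 of the 15 were all probe sets past the floor also past the threshold, beside 1.39% of the 7113 genes for higher and 0.928% for lower.

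None of the 8 cadherin genes past the floor that lie outside the desmosome reached the threshold, beside 7.6% of all genes past the floor, so a count of 0 among 8 is near the background. CDH2, which encodes N-cadherin, read 8.41 with the empty vector and 8.49 with EGR1. Its second probe set read 6.46 and 6.78, a difference of 0.32, just short of the threshold. CDH1, which encodes E-cadherin, lay under the floor in both arrays, at 4.0 and 3.71 by the brighter probe set and 3.09 and 3.36 by the other. The CDH1 probe sets thus had differences of opposite sign (-0.29 and 0.27), both from dim values.

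CDH3, which encodes P-cadherin of basal epithelia, read 5.97 with the empty vector and 5.92 with EGR1. CDH15, the M-cadherin of muscle, differed by 0.14 with 1 probe set. Of the type II cadherins past the floor, CDH20 differed by -0.19, CDH22 by -0.06 and CDH24 by 0.06. CDH16, a kidney cadherin, differed by 0.07. CDH23, a cadherin of inner-ear tip links, had 8 probe sets of which 4 were above 0 and 4 below. With the mean of all probe sets or another scaling or probe-set type, CDH3, CDH22 and CDH23 changed sign, and CDH24 was 0 by one of them.

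The remaining 32 junction genes lay under the floor. Of these 2 (6.25%) were past the threshold, beside 11.6% of 5480 genes under the floor, and both were lower, beside 3.8%. CLDN8, a claudin of kidney tubules, read 3.40 with the empty vector and 2.88 with EGR1, and its other probe set did not differ (0.00). EPCAM read 4.14 and 3.75, and all 3 of its probe sets were lower, by -0.39, -0.46 and -0.43. The other 30 differed by -0.29 to 0.29, with 15 above 0. They included CDH5 (VE-cadherin) and CLDN5, both of endothelium, at 0.03 and 0.03. Of the desmosomal cadherins 5 of 7, of the type II cadherins 10 of 13 and of the claudins 11 of 22 were under the floor. This was so for 32 of the 62 junction genes, beside 5480 of all 18132 genes.

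**Figure D3:**
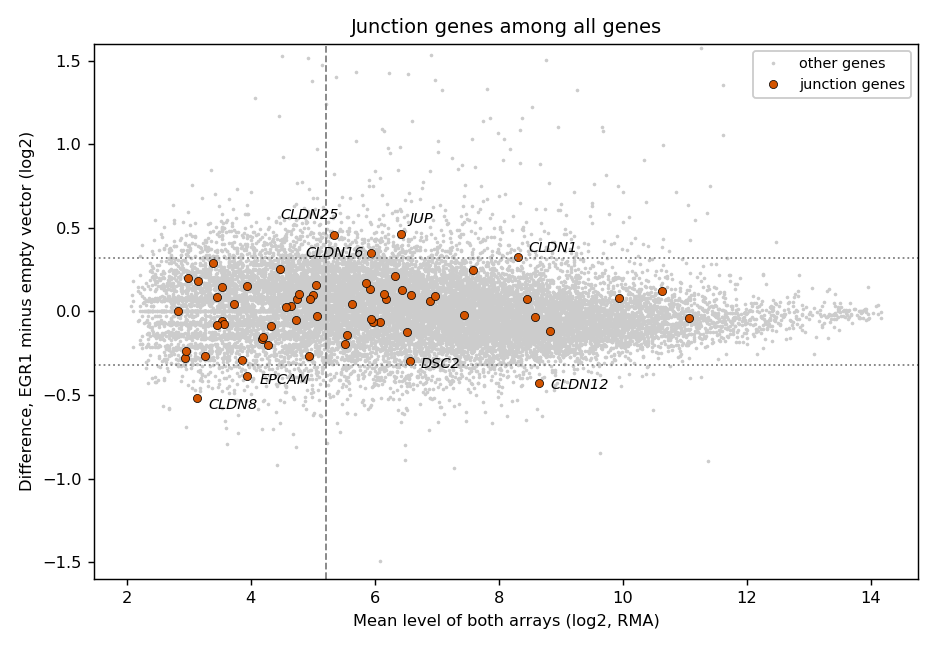
Difference (log2, EGR1 minus empty vector) against the mean level of both arrays (log2, RMA) for all 18132 genes in grey and the 62 junction genes in orange; the dashed line is the floor, dotted lines mark the threshold of 0.32, and 17 other genes beyond 1.6 log2 units lie outside the axis. The junction genes stay between -0.52 and 0.46.

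The labelled cell type was checked against markers. Past the floor were 7 of 8 mesenchymal markers, with VIM at 13.73 and 13.66 and ZEB1 at 9.24 and 9.28 in the empty-vector and EGR1 arrays. Of all 18132 genes 12652 lay past the floor, so a count past it is a weak check of cell type. Of 10 epithelial markers 4 lay past it, whereas EPCAM, CDH1, CLDN7, ESRP1, GRHL2 and ELF3 lay under it. Of the lung markers NKX2-1, SFTPB, SFTPC and NAPSA lay past the floor, between 6.01 and 6.88, and SFTPA1 and SCGB1A1 under it.

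Of the 4 epithelial markers past the floor, 3 were above 0 and 1 below, with a median difference of 0.10. Among all genes past the floor 44.6% were above 0. KRT7, a keratin of simple epithelia, was 1.47-fold lower in the EGR1 array. It passed the floor only through its empty-vector level (5.75, against 5.20 with EGR1), so its place here depends on its difference. KRT19, another such keratin, differed by 0.24, CLDN4 by 0.13 and the trafficking gene RAB25 by 0.07. The summed log2 level of all 10 epithelial markers was 49.9 with the empty vector and 49.0 with EGR1, opposite in direction to that median. This sum includes the 6 markers under the floor and the junction genes EPCAM (-0.39), CDH1 (-0.29), CLDN4 and CLDN7 (0.07). Of the 7 mesenchymal markers past the floor 5 were above 0, beside 44.6% of all genes past the floor. The median of the 7 was 0.08, and the summed level of all 8 was 62.9 and 63.5. The 5 include the junction gene CDH2, whose 0.08 is that median, and ZEB1 at 0.04, with probe sets from -0.46 to 0.04. VIM and ZEB2 differed by -0.07 and -0.05. S100A4, a calcium-binding protein of motile cells, was 1.28-fold higher, and the matrix genes SPARC and FN1 differed by 0.17 and 0.14. The endothelial (3 of 6 past the floor), fibroblast (1 of 7) and leukocyte (2 of 5) markers held no gene past both the floor and the threshold. Among all genes past the floor 7.6% reached the threshold. CDH5, TEK, COL3A1, DCN and PTPRC were among those under the floor. Past it were the endothelial markers PECAM1, VWF and KDR, the fibroblast marker PDGFRB and the leukocyte markers CD3E and CD68. CD3E passed it only through its EGR1 level (5.49, against 5.18 with the empty vector). A level past the floor is therefore not a call that the gene is expressed. Whether these marker differences play a part in those of the junction genes was not tested.

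Partner proteins of the junctions were examined through lists written from general knowledge, but with earlier results of these data known. The counts of these lists are therefore not independent of the data. In the list of adherens and desmosome partners, none of 18 genes past the floor reached the threshold in either direction, beside 7.6% of all genes. ACTN1, an actin cross-linker, was 1.22-fold higher, with 7 probe sets from 0.06 to 0.35. The nectins NECTIN4, NECTIN1 and NECTIN2, which are adhesion receptors of adherens junctions, differed by 0.28, 0.24 and 0.21, and probe sets of NECTIN4 and NECTIN1 lay on both sides of 0.

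In the list of tight-junction partners and polarity genes, 3 of 26 genes past the floor were higher by the threshold or more and none lower, beside 4.36% and 3.25% of all genes past the floor, with a median difference of 0.04. PARD6B, a polarity protein that assembles with atypical protein kinase C, read 6.20 with the empty vector and 6.91 with EGR1, 1.63-fold higher, and its second probe set differed by 0.88. CGN, which encodes the junction scaffold cingulin, read 6.68 and 7.14, 1.38-fold higher, with probe sets from -0.03 to 0.46. AMOTL2, an angiomotin-family protein, was 1.27-fold higher. PARD6G, a second PAR6 gene, differed by 0.30.

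Among cadherin repressors and epithelial regulators, 3 of 12 genes past the floor passed the threshold upward and 1 downward, beside the same 4.36% and 3.25% of all genes, with a median of 0.01. GRHL1, a grainyhead factor of epithelia, read 6.48 with the empty vector and 7.32 with EGR1, 1.79-fold higher, with 3 probe sets from 0.25 to 0.84. SNAI1, which represses CDH1, read 6.26 and 6.92, 1.58-fold higher by 1 probe set. OVOL1, an epithelial zinc-finger factor, was 1.49-fold higher, starting under the floor (5.05), with probe sets from -0.38 to 0.57. KLF4, an epithelial differentiation factor, differed by -0.32, and its second probe set was 0.12.

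Among sheddases and trafficking genes of cadherins, 1 of 9 was higher and 1 lower, beside 4.36% and 3.25% of all genes past the floor. ADAM15, a disintegrin metalloproteinase, read 7.66 with the empty vector and 8.35 with EGR1, 1.61-fold higher, with all 6 probe sets between 0.22 and 0.69. MDM2, a ubiquitin ligase, was 1.29-fold lower, with 11 probe sets from -0.60 to 0.25. NUMB differed by 0.16 and ADAM17 by 0.12.

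Target genes of beta-catenin and TCF factors held 1 gene past the threshold among 12 past the floor, which is near the 7.6% of all genes. LEF1, itself a partner factor of beta-catenin, read 6.51 with the empty vector and 7.53 with EGR1, 2.03-fold higher, and its 9 probe sets ran from 0.17 to 1.02. SOX9 differed by 0.25, the Wnt inhibitor DKK1 by -0.24 and SP5 by 0.23. The median of the list was 0.04. Gap-junction genes held 1 higher gene of 5 past the floor (4.36% of all genes were higher), the connexin gene GJA3 at 1.35-fold (5.35 against 5.78). GJB5 differed by 0.30, GJC1 by -0.27 and GJB1 by -0.08.

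**Figure D4:**
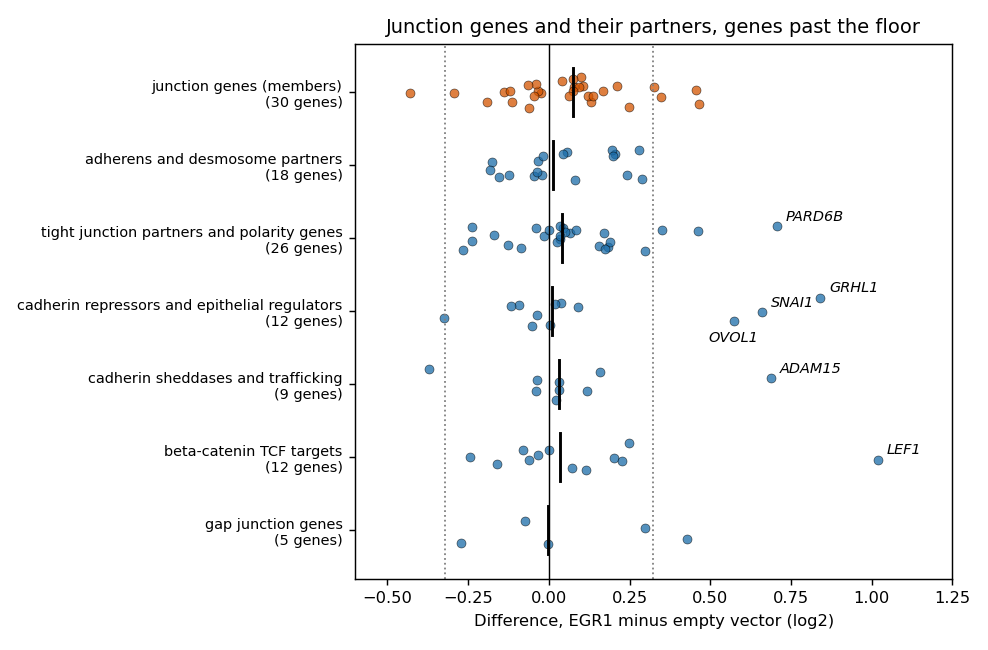
Difference (log2, EGR1 minus empty vector) of the junction genes and of the genes of 6 partner lists, past the floor; each point is a gene, placed at random heights within its row, black bars are medians and dotted lines mark the threshold of 0.32. The largest differences, LEF1 at 1.02 and GRHL1 at 0.84, belong to the partner lists, while the junction genes end at 0.46.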

How the data were processed

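The authors deposited log2 levels per probe set, made with RMA, per the submitters' processing notes. The sources used here give neither the software nor its settings. RMA normalizes between arrays, so a shift shared by most genes would be lost, and it gives no detection call.

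Of 49395 probe sets, 102 were controls, 44988 had 1 gene symbol in the platform annotation and 1832 had several. Symbols were updated by Entrez ID through a RefSeq table (GRCh38.p14), where 44961 matched. Ties for the brightest probe set were decided by identifier. Named were all junction genes past the floor, those under it past the threshold, and up to 4 genes of each partner list past the floor with the largest differences. Marker genes and others under the floor were named for their role, after their values were seen. Members, lists and the threshold of 0.32 log2 units were chosen with earlier results of these data known. Calculations used Python 3.11.15, numpy 2.4.6, pandas 2.3.3 and statsmodels 0.14.6 and were tested on simulated data. The values name no genome build, and coordinates belong to the RefSeq promoters. With 1 array per group nothing was tested, and the number of arrays limits the precision.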

Additional observations from a re-analysis of the deposited data

How the results depend on the processing

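The count of 5 junction genes at or beyond the threshold of 0.32 (4 higher, 1 lower) was the same, with the same genes, after the lowess correction and after quantile normalization. RMA had already normalized between the arrays, so these settings are a weak check. With each gene at the mean of its probe sets it was 4 (without CLDN16), and 4 without _x_at and _s_at probe sets, where 0 were lower because CLDN12 fell just short. With the floor at the 60th percentile 3 remained, 2 of them higher (JUP and CLDN1). With the floor at the 20th percentile 2 were lower (CLDN12 and EPCAM), and with no floor 3 were (also CLDN8). At 1.5-fold and at 2-fold the counts were 0, higher and lower alike. The median difference ran from 0.02 to 0.09 over the alternatives. Of the single genes, 27 of 30 moved by less than 0.15 with that mean and 26 of 28 without _x_at and _s_at probe sets, and no gene past the threshold changed sign. No paired analysis was possible because each group held 1 array, and for the same reason no array could be left out.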

Other observations

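Of the catenin genes named in the rule, CTNND1, which encodes p120-catenin, the regulator of cadherin turnover, has 5 probe sets that the annotation assigns to CTNND1 and TMX2-CTNND1 together. The brightest read 7.28 with the empty vector and 7.26 with EGR1, and the next 6.95 and 6.78. The remaining 3 lay under the floor and differed by 0.17, 0.13 and -0.08.

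CDH11, a type II cadherin of mesenchymal cells, lay under the floor by all 6 probe sets. A probe set outside the brightest read 3.83 with the empty vector and 4.31 with EGR1, 1.39-fold higher, while its brightest probe set differed by 0.10 and the other 4 by -0.19 to -0.07. It was chosen after its values were seen.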
